A study of Caenorhabditis elegans with 18 samples.

Results

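The response to antimycin A was described in Caenorhabditis elegans that carry the tm1307 allele of the nuclear hormone receptor gene nhr-45. In it, 3 libraries of mutants grown with the drug were compared with 3 libraries of mutants grown with its solvent DMSO. These are 6 of the 18 libraries in the series. The remaining libraries came from wild-type animals and from nhr-178 mutants, each grown with the drug or with DMSO. All 18 libraries entered the main fit behind the tests, and the responses of the genotypes were compared in it as well. Of 23368 genes in the count table, the 10981 that passed a filter on low counts were tested. All animals, controls included, were fed Escherichia coli HT115 on agar. Cultures had been synchronised by an 18 hour arrest as first-stage larvae, and treatment with 0.3 µM antimycin A or DMSO alone ran from then to the early adult stage. Each library was made from total RNA of at least 1000 whole animals, so it averages over tissues and individuals. The labels call the strain a mutant and do not say what tm1307 removes or whether the strain was backcrossed. Separate cultures for each library are not stated beyond the word triplicate. If there were none, p-values reflect technical spread alone.

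Antimycin A blocks the oxidation of ubiquinol at respiratory complex III, so electrons no longer pass to cytochrome c. Nuclear hormone receptors are transcription factors, many of which are regulated by small lipophilic ligands. Worms build a new collagen cuticle under the old one at each moult, and genes for collagens, their processing enzymes and the transient apical matrix are switched on in pulses with each cycle. In hermaphrodites sperm are made first, the germline then turns to oocytes, and the adult intestine supplies yolk proteins to them. These features set the roles by which the genes are ordered here.

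The targeted gene did not check the genotype. nhr-45 (X:4656433-4660318, positions here and below from the WBcel235 annotation) was counted in every mutant library, at 3.33, 5.82 and 3.73 CPM in DMSO and 7.57, 4.84 and 6.52 CPM in antimycin, where CPM, the unit of all levels here, is a gene's count as a share of its library after scaling the libraries to each other. It was not called (log2 fold change 0.61 ± 0.30, SE, adjusted p = 0.14), and counts per gene do not show whether the part that tm1307 removes was read. Total counts were 7601051, 6675135 and 4414172 in DMSO and 8441572, 1772887 and 5669679 in antimycin, so replicate 2 in antimycin was the shallowest. On the first principal component of all 18 libraries, with 42.3% of the variance, the 3 mutant libraries in antimycin lay at 83.8 to 95.5 and the other 15 between -36.2 and -0.444. Between 10360 and 10572 genes reached 1 CPM in the antimycin libraries, against 9762 to 9927 in DMSO. The shallow library correlated with the other antimycin libraries at 0.958 and 0.957 in log CPM over genes, and those correlated with each other at 0.979.

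Antimycin changed many genes in the mutants, and the higher and lower genes differed in size of change. By the quasi-likelihood test of edgeR at an adjusted p under 0.05, 1670 genes were higher (15.2%) and 915 lower (8.33%), 23.5% in all. A change of at least 2-fold was reached by 1165 of the higher genes (10.6% of those tested) and by 113 of the lower (1.03%). At 8-fold the numbers were 382 and 2. The median log2 fold change was 1.49 over the higher genes and -0.59 over the lower ones, beside 0.00 over all genes tested.

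Most of the higher genes started from low levels. Their median level was 4.31 CPM in DMSO and 15.3 CPM in antimycin, 441 of them were under 1 CPM in DMSO, and 37 had no count there. The lower genes had a median of 101 CPM in DMSO and 66.1 CPM in antimycin. Together the higher genes took 7.12% of scaled counts in DMSO and 12.9% in antimycin, and the lower genes 21.7% and 15.6%. Among genes under 1 CPM in DMSO, 44.7% were called higher and 0 lower, while among genes over 100 CPM 5.79% were called higher and 23.3% lower. The bins use the DMSO side of the same comparison, and a gene under 1 CPM there can hardly be called lower. Some genes of low level passed the filter only because they were counted in antimycin. The shares by level were therefore partly fixed by the bins and the filter. With the filter set on the other 15 libraries, a choice made after seeing the data, 10283 genes were tested, of which 1266 were higher and 734 lower. The number of lower genes was also sensitive to single libraries. It was 564 without DMSO replicate 1, 555 without antimycin replicate 3, and 489 when only the mutant groups entered the fit, which then called 1469 higher.

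**Figure D1:**
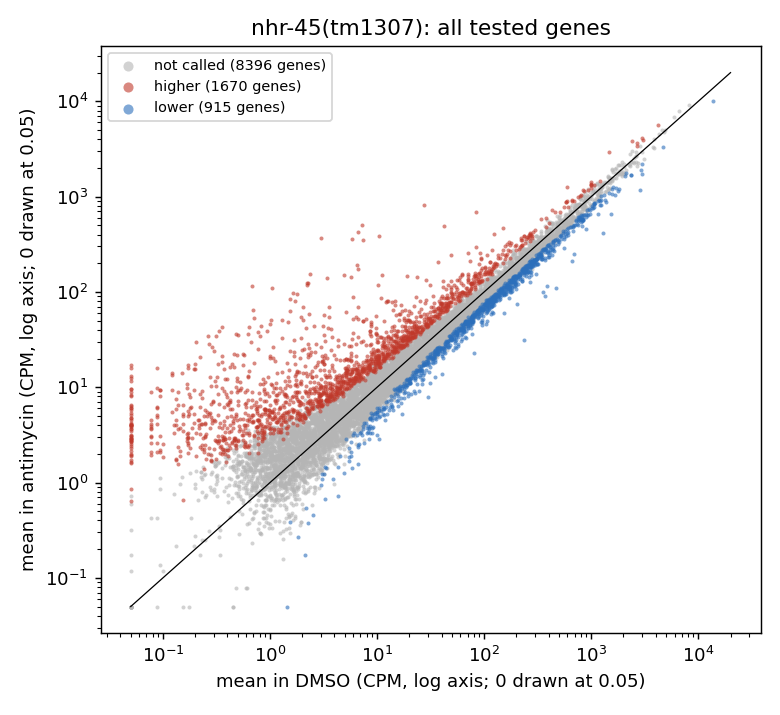
Mean level of each of the 10981 tested genes in DMSO (x axis, CPM) and in antimycin (y axis, CPM), both on log axes, in nhr-45 mutants; the line marks equal levels. The 1670 higher genes spread far above the line at the low end, and the 915 lower genes lie close under it at the high end.

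The chromosomes were not equally represented. On the X chromosome 23.1% of 1587 tested genes were higher and 5.92% lower, with a median log2 fold change of 0.31. On chromosome I 10.1% of 1880 were higher and 10.9% lower, with a median of -0.12. Chromosomes II to V lay between 9.91% and 17.9% for higher genes, with chromosome III lowest. These shares are given without a test, since genes on a chromosome are not replicates.

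Collagens that shape the cuticle rose together. All 4 tested members of the 6 annular furrow collagens, which form the circumferential grooves, were higher. So were all 10 tested of 15 collagens that set body shape or build the struts between cuticle layers. Their median log2 fold changes were 4.34 and 4.97. Only 1 and 6 of these 14 passed the filter on the other 15 libraries, and all 7 were higher there too. sqt-3 (V:12352745-12354320), a collagen needed for body shape, was at 20.5, 12.4 and 48.9 CPM in DMSO, while the treated libraries had 929.7, 400.1 and 1104 CPM. The lowest treated library, replicate 2, still lay far above the highest control (log2 fold change 4.95 ± 0.44, adjusted p = 1.5e-09). sqt-3 overlaps another counted gene, and the use of strand in counting is not given, so reads of the pair cannot be told apart.

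dpy-13 (IV:4235614-4236710), whose loss makes worms short and fat, was at 1.60, 1.04 and 2.33 CPM in DMSO and 83.1, 98.4 and 111 CPM in antimycin, a log2 fold change of 5.92 ± 0.28 (adjusted p = 1.5e-14). dpy-5 (I:5432197-5433051), of the same phenotype, had 0.266, 0.298 and 0.233 CPM in DMSO and 31.9, 29.04 and 42.2 CPM in antimycin, or 5 and 570 counts over the groups (6.90 ± 0.39, adjusted p = 2.8e-13). In both genes each treated library was many times above each control. ram-2, named for male ray morphology, rose from 7.06, 5.07 and 7.92 to 153, 126 and 244 CPM, and bli-6, named for its blistered mutants, from 7.86, 9.25 and 13.3 to 104, 103 and 145 CPM. dpy-4 rose by 5.67 ± 0.35. Among the furrow collagens dpy-2 went from 0.932, 0.298 and 0.233 to 11.1, 14.5 and 9.61 CPM (4.41 ± 0.70, adjusted p = 3.5e-05). dpy-10, which overlaps another counted gene, went from 2.26, 2.24 and 1.16 to 11.7, 10.8 and 10.5 CPM. dpy-7, with 2 counts in DMSO and 100 in antimycin, had a ratio of scaled counts of 57.3 with a 95% counting interval of 15.5 to 480.0.

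Among markers of the adult cuticle, col-19 did not follow. The markers bli-1, bli-2, rol-6 and col-62 had more counts in antimycin, from few or none in DMSO. A further marker, col-7, is not described here. The collagen gene col-19, which adults express, was at 217, 194 and 224 CPM in DMSO and 275, 247 and 240.0 CPM in antimycin and was not called (0.26 ± 0.12, adjusted p = 0.11). bli-1, a strut collagen of the adult, was higher, from 0, 0.149 and 0.699 to 8.05, 8.07 and 3.77 CPM, although it overlaps another counted gene. bli-2 and rol-6 did not pass the filter, with 1 count each over the DMSO libraries and 37 and 19 over the antimycin libraries. The adult marker col-62 also missed it, with 0 counts in DMSO and 20 in antimycin. The furrow collagens dpy-3 and dpy-8 did not pass either, with 0 counts each in DMSO and 15 and 20 in antimycin.

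In the larger col series the abundant genes were seldom higher. Of 152 such genes counted, 98 were tested, and 68 were higher and 7 lower, with a median log2 fold change of 3.79 (34 and 7 of 64 with the filter on the other 15 libraries). Of 38 tested col genes under 1 CPM in DMSO 36 were higher, of 33 between 1 and 20 CPM 26, and of 7 between 20 and 100 CPM 4. Of the 20 over 100 CPM, 2 were higher and 5 lower. Most of those under 1 CPM entered the test only through their antimycin counts, so their share was largely fixed by the filter. With the filter on the other 15 libraries, 3 of 5 under 1 CPM and 25 of 32 between 1 and 20 CPM were higher, and the counts for more abundant genes were the same. The summed level of the series moved little, from 29823, 27953 and 31177 CPM in DMSO to 33523, 31249 and 30754 CPM in antimycin. col-119 (IV:8978926-8979795) alone held 46.6% of the series' mean in DMSO. It was at 13246, 13524 and 14707 CPM there and at 10329, 10048 and 10025 CPM in antimycin, and fell by 0.45 ± 0.12 (adjusted p = 0.0058).

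**Figure D2:**
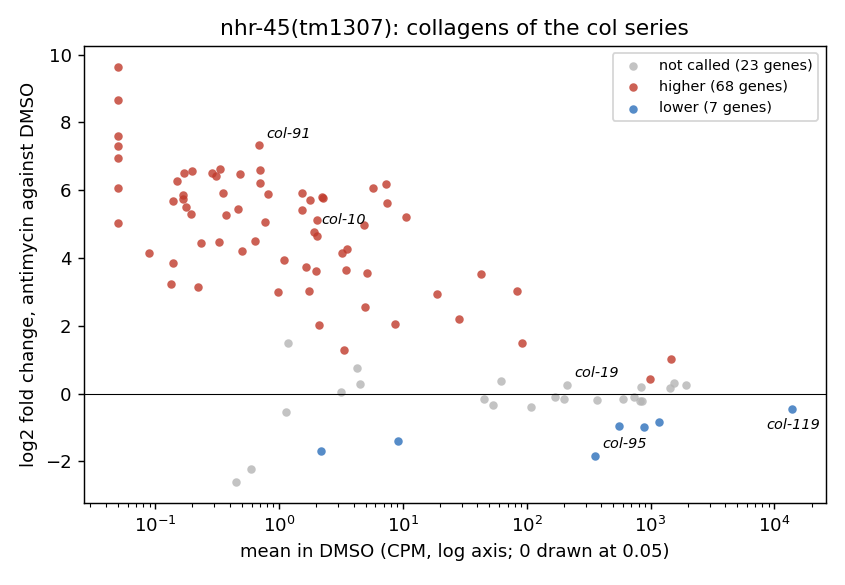
The 98 tested collagens of the col series by mean level in DMSO (x axis, CPM, log axis) and log2 fold change in antimycin (y axis) in nhr-45 mutants. The 68 higher genes are mostly those under 100 CPM in DMSO, while the most abundant gene, col-119, lies slightly below 0.

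Among col genes at opposite ends of this range, col-10 rose from 2.53, 1.64 and 1.63 to 57.9, 45.7 and 59.5 CPM (4.78 ± 0.33, adjusted p = 1.2e-11). col-91 rose from 0.399, 1.19 and 0.466 to 103, 90.3 and 153 CPM (7.33 ± 0.44, adjusted p = 8.4e-13). col-127 had 0 counts in DMSO and 238 in antimycin and was at least 91.0-fold higher, with the DMSO group set at 3 counts. In each of them the 3 treated libraries agreed in size. col-95 was at 349, 341 and 382 CPM in DMSO and 121, 85.0 and 93.5 CPM in antimycin and fell by 1.83 ± 0.15 (adjusted p = 2.8e-10). col-143, col-101 and col-8 fell by 0.98 ± 0.14, 0.83 ± 0.13 and 0.94 ± 0.15, and their groups did not overlap.

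Enzymes that fold, cut and cross-link collagen rose more modestly. Of 18 tested genes of 20, 11 were higher and 1 lower, with a median of 0.99 (8 and 1 of 15 with the filter on the other 15 libraries). dpy-18, the catalytic subunit of prolyl 4-hydroxylase, which stabilises the collagen triple helix, was at 54.1, 44.3 and 40.98 CPM in DMSO and 126, 114 and 115 CPM in antimycin (1.35 ± 0.16, adjusted p = 3e-07). nas-7, an astacin metalloprotease that overlaps another counted gene, rose from 15.8, 8.80 and 26.1 to 68.5, 67.8 and 82.5 CPM. The lower one was skpo-1, a peroxidase with a ShKT domain, from 26.6, 17.1 and 17.2 to 13.8, 11.3 and 8.23 CPM. Its call was lost without DMSO replicate 1 or antimycin replicate 3. Of 16 tested astacins of 34, 10 were higher and 0 lower, with a median of 2.15 (5 of 11 with the filter on the other 15 libraries). nas-27 had 1.60, 0.596 and 0.233 CPM in DMSO and 36.8, 35.0 and 30.5 CPM in antimycin (5.22 ± 0.50, adjusted p = 6.7e-09).

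Genes of the matrix that covers the epidermis at moulting rose in the same libraries. Of 15 tested of 16, 12 were higher and 1 lower, with a median of 3.39 (5 and 1 of 8 with the filter on the other 15 libraries). mlt-8 (II:569210-572110), named for its moulting defect, was at 5.73, 5.67 and 8.15 CPM in DMSO and 177, 205 and 192 CPM in antimycin (4.90 ± 0.26, adjusted p = 6.9e-14). The lipocalin gene lpr-3 rose from 1.07, 0 and 0 to 25.2, 20.4 and 17.5 CPM, and noah-1, a zona pellucida domain protein, from 0.133, 0.447 and 0.931 to 6.27, 5.92 and 9.44 CPM. The lower member was egg-6, an abundant leucine-rich repeat protein, which went from 585, 440.1 and 437 to 316, 314 and 328 CPM and fell by 0.61 ± 0.13 (adjusted p = 0.0016). mlt-9 had 1 count in DMSO and 264 in antimycin. egg-6 holds most of the list's counts in DMSO, and the summed level of the list was 671, 495 and 504 CPM in DMSO and 701, 699.6 and 724 CPM in antimycin.

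Of 9 tested cuticlins and related zona pellucida genes of 35, 8 were higher (5 of 6 with the filter on the other 15 libraries). The 8 became 2 without DMSO replicate 1, 2 without DMSO replicate 2, 3 without antimycin replicate 3, and 4 or 5 without any other of the 6 libraries. cut-2 rose from 1.07, 0.298 and 2.56 to 50.2, 44.1 and 57.5 CPM, and cutl-15 from 27.3, 30.4 and 36.1 to 107, 117 and 129 CPM. Hedgehog-related proteins are secreted, and most come from the epidermis. Of 23 tested of 57, 15 were higher and 1 lower, with a median of 2.07 (7 and 1 of 14 with the filter on the other 15 libraries). grl-16 went from 1.73, 3.13 and 5.36 to 122, 148 and 151 CPM (5.45 ± 0.40, adjusted p = 3.3e-11) and wrt-10 from 1.07, 2.39 and 0.931 to 37.03, 46.8 and 62.3 CPM. grd-6 and wrt-4 had no count in DMSO and were at least 47.4-fold and 37.8-fold higher. The lower one, grd-4, went from 8.52, 9.25 and 7.45 to 2.72, 3.76 and 4.63 CPM and was not called without antimycin replicate 1. Of 18 tested Patched-related genes, 9 were higher, and 3 without antimycin replicate 3 (6 of 15 with the filter on the other 15 libraries). ptr-4 rose from 0.666, 0.298 and 0.466 to 9.11, 8.60 and 12.4 CPM and ptc-3 from 25.7, 13.3 and 12.6 to 39.6, 45.2 and 48.5 CPM.

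Regulators of larval timing and of the moulting cycle changed unevenly. Of 20 genes, all tested, 8 were higher and 1 lower, with a median of 0.71. lin-42 (II:1233236-1252359), a Period homologue whose transcript oscillates with the moults, was at 4.13, 1.19 and 4.42 CPM in DMSO and 22.2, 17.7 and 51.8 CPM in antimycin (3.29 ± 0.43, adjusted p = 2.2e-06). Replicate 3 was the highest treated library and every treated library was above every control. lin-29, a zinc finger factor of the larval-to-adult switch, rose from 10.3, 11.3 and 6.75 to 17.5, 27.96 and 24.4 CPM (1.24 ± 0.26, adjusted p = 0.00098). lin-14, a factor of early larval fates, rose from 82.4, 70.5 and 89.9 to 151, 148 and 143 CPM (0.87 ± 0.14, adjusted p = 3e-05). Both overlap another counted gene. myrf-1 and bed-3, transcription factors required for moulting, rose by 1.40 ± 0.36 and 1.39 ± 0.37.

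The receptors that drive the moulting cycle were not called. nhr-23 was at 71.1, 67.7 and 82.2 CPM in DMSO and 59.5, 42.5 and 66.0 CPM in antimycin (-0.37 ± 0.17, adjusted p = 0.12). nhr-25 was near 1 CPM in both groups and had 0.66 ± 0.58 (adjusted p = 0.43). The zinc finger gene blmp-1 had 0.53 ± 0.26 (adjusted p = 0.14) and the RNA-binding protein gene lin-28 had -0.06 ± 0.22 (adjusted p = 0.88). lin-41 was the lower member, by -0.47 ± 0.16 (adjusted p = 0.029). Its groups overlapped, and it was not called without DMSO replicate 1, DMSO replicate 2 or antimycin replicate 3. Over the whole family of nuclear hormone receptors, 17 of 104 tested of 247 were higher and 1 lower, a share near the background. The 17 became 10 without DMSO replicate 2 and 11 without antimycin replicate 1. nhr-19, which overlaps another counted gene, rose from 3.73, 4.62 and 3.96 to 24.5, 15.1 and 19.6 CPM (2.29 ± 0.26, adjusted p = 1.3e-07).

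**Figure D3:**
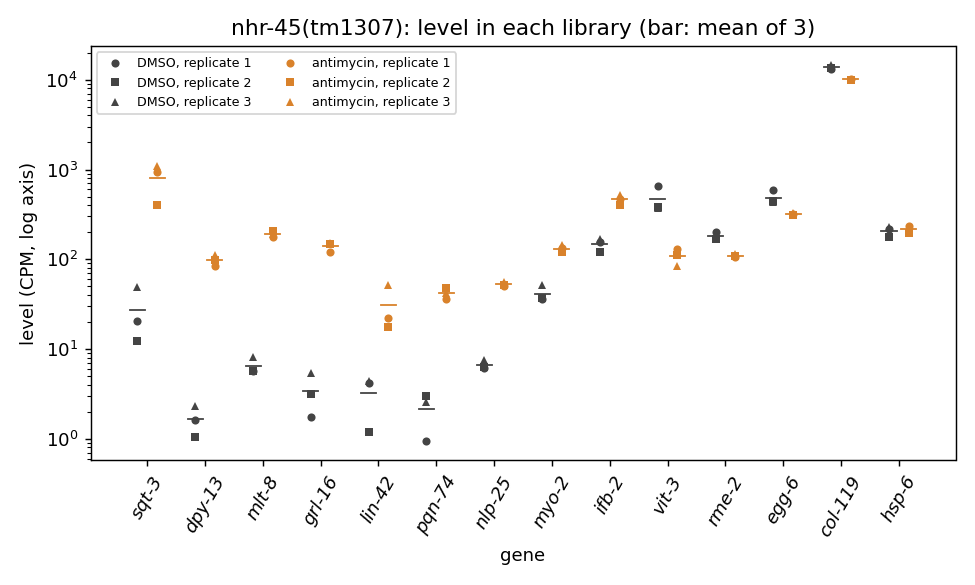
Level of 14 genes in each of the 6 nhr-45 libraries (y axis, CPM, log axis), with a bar at the mean of 3. The 3 antimycin libraries lie above the 3 DMSO libraries for sqt-3 to ifb-2 and below them for vit-3, rme-2, egg-6 and col-119, while hsp-6 overlaps; levels of different genes are not corrected for length.

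Genes of the pharynx, the muscular feeding organ, rose as well. Of 22 tested genes of 32 for its cuticle and glands, 18 were higher and 1 lower. The median was 4.06, or 3.62 with the 3 genes that had no count in DMSO at their bound. With the filter on the other 15 libraries 6 of 10 were higher and 1 lower. pqn-74 went from 0.932, 2.98 and 2.56 to 35.6, 47.3 and 42.0 CPM (4.29 ± 0.37, adjusted p = 8.7e-10) and abu-14 from 0.133, 0.447 and 0.931 to 38.3, 37.1 and 29.7 CPM (6.25 ± 0.56, adjusted p = 2.2e-09). Both encode proteins rich in glutamine, asparagine or cysteine, of a kind found in the pharyngeal cuticle. The gland gene phat-3 was the lower one, from 1.86, 6.26 and 4.89 to 0.946, 0.538 and 0.686 CPM. The summed level of the list was 47.01, 109 and 136 CPM in DMSO and 344, 374 and 349 CPM in antimycin. DMSO replicate 1 was the lowest control for this sum. In whole-animal RNA, a change in the number or size of cells of a type and a change in RNA per cell cannot be told apart.

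Of 32 muscle genes, all tested, 14 were higher and 0 lower, with a median of 0.38. myo-2, a myosin heavy chain of pharyngeal muscle, was at 35.8, 36.8 and 51.7 CPM in DMSO and 133, 119.9 and 142 CPM in antimycin (1.68 ± 0.16, adjusted p = 1e-08). myo-1, the other pharyngeal heavy chain, rose by 1.04 ± 0.20 and the pharyngeal troponin I gene tni-4, which overlaps another counted gene, by 1.27 ± 0.21. Another troponin I gene, tni-1, rose from 73.4, 62.3 and 76.1 to 270.2, 239.8 and 249.8 CPM. The heavy chains of body wall muscle were not called, with unc-54 at 2725, 1465 and 1862 CPM in DMSO and 2594, 1764 and 2193 CPM in antimycin and myo-3 at 0.82 ± 0.34 (adjusted p = 0.078). Both pairs of groups overlapped.

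Of 44 tested neuronal genes of 51, 21 were higher and 0 lower, with a median of 0.78. That number was 9 without DMSO replicate 1 and 13 without antimycin replicate 1. The neuropeptide genes flp-11, flp-33 and flp-9 rose by 1.23 ± 0.18, 1.20 ± 0.18 and 1.04 ± 0.19, of which flp-11 and flp-33 overlap another counted gene. flp-11 was at 39.0, 48.8 and 57.7 CPM in DMSO and 118.8, 96.8 and 123 CPM in antimycin. The summed neuronal level was 1151, 1411 and 1713 CPM in DMSO and 2138, 1993 and 2208 CPM in antimycin, again lowest in DMSO replicate 1.

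**Figure D4:**
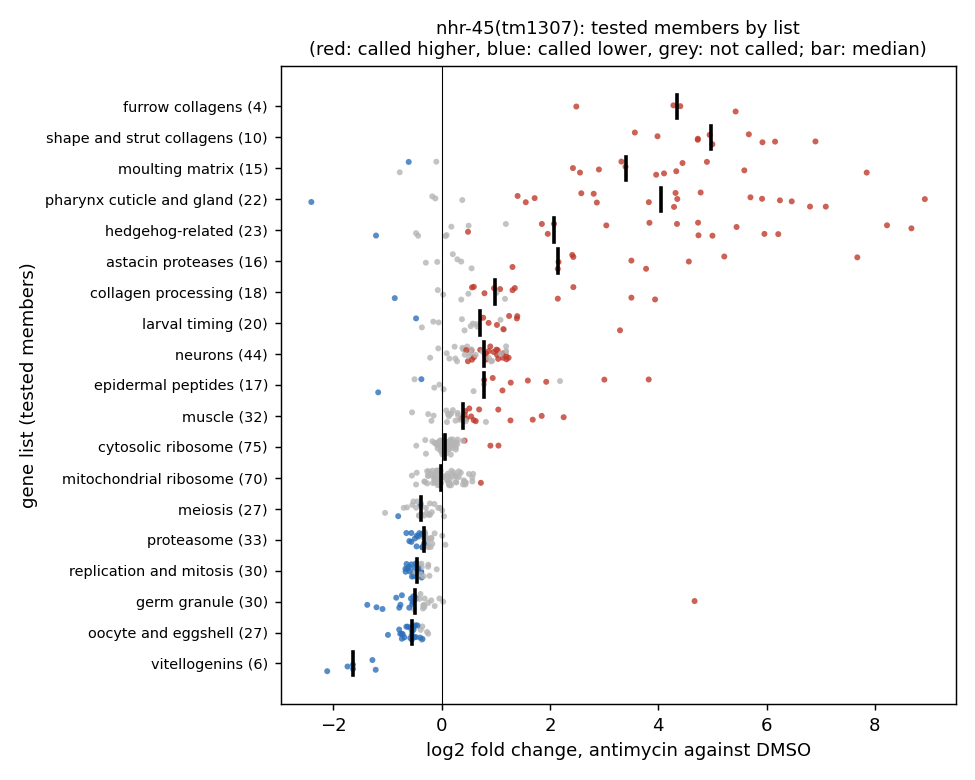
Log2 fold change (x axis) of every tested member of 19 gene lists (y axis, number tested in brackets) in nhr-45 mutants, with a bar at each median. Medians run from 4.97 for shape and strut collagens to -1.64 for vitellogenins, and the medians of both ribosome lists lie at 0.07 and -0.01.

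In the epidermis, 8 of 17 tested antimicrobial and neuropeptide-like genes were higher and 2 lower, with a median of 0.78. nlp-25 rose from 6.13, 6.26 and 7.45 to 50.5, 52.2 and 55.2 CPM (adjusted p = 1.2e-10), and nlp-33, an antimicrobial peptide gene, from 78.4, 96.5 and 105 to 239, 218 and 218 CPM. cnc-7, a caenacin, fell by 1.17 ± 0.26. The 2 lower genes became 1 without DMSO replicate 2 or antimycin replicate 3.

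Intestinal genes were more often higher than lower. Of 20 tested intestinal genes 9 were higher and 2 lower, with a median of 0.40. The higher share lay above the 15.2% over all genes tested, and the lower share near their 8.33%. ifb-2 and ifc-2, intermediate filaments under the brush border, rose from 157, 120.5 and 169.7 to 471, 405 and 520.3 CPM and from 104, 88.9 and 89.2 to 228, 208 and 226 CPM, with adjusted p = 8.7e-10 and 8.1e-08. Of 22 cathepsin and aspartic proteases 8 were higher and 5 lower, both above those shares. The protease and intestinal lists have 3 genes in common, asp-1, cpr-1 and cpr-6. The gut protease cpr-1 rose from 60.2, 95.7 and 96.6 to 289, 317 and 281 CPM and asp-8 from 59.0, 38.3 and 36.1 to 104, 102 and 113 CPM. cpz-1, a cathepsin Z-like protease that takes part in moulting, went the other way, from 132, 108 and 124 to 57.1, 60.2 and 61.6 CPM (-1.02 ± 0.14, adjusted p = 5.9e-06).

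Yolk and oocyte genes fell. All 6 vitellogenins, the yolk proteins made in the intestine, were lower, with a median of -1.64. Their summed level was 9302, 5983 and 6309 CPM in DMSO and 3151, 2602 and 2299 CPM in antimycin, so replicate 1 was the highest control. vit-3 (X:3567355-3572549) was at 660.3, 385 and 372 CPM in DMSO and 131, 111 and 84.6 CPM in antimycin and fell by 2.12 ± 0.22 (adjusted p = 4.4e-08), and vit-4 fell by 1.74 ± 0.20. Members are near copies of each other, so how reads were shared between them is uncertain. Of 27 oocyte and eggshell genes 22 were lower and 0 higher, with a median of -0.55. rme-2, the yolk receptor of oocytes, was at 202, 166 and 181 CPM in DMSO and 105, 108 and 116 CPM in antimycin (-0.74 ± 0.14, adjusted p = 0.00034). The eggshell chitin synthase gene chs-1, which overlaps another counted gene, went from 50.5, 40.6 and 30.5 to 20.8, 26.4 and 16.1 CPM. The oocyte maturation regulators oma-1 and oma-2 fell by 0.49 ± 0.12 and 0.55 ± 0.12.

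Part of the other germline genes tested were lower. Of 30 replication and mitosis genes 18 were lower and 0 higher, with a median of -0.46. When only the mutant groups entered the fit, 11 were lower. mcm-6, part of the replicative helicase, overlaps another counted gene and went from 482, 452 and 379.8 to 288, 277 and 261 CPM (-0.67 ± 0.12, adjusted p = 0.00019). Of 30 germ granule and small RNA genes 15 were lower and 1 higher, with a median of -0.50, and 9 were lower without DMSO replicate 1. The 1 higher gene was alg-4, an Argonaute of the sperm-producing germline, with 2 counts in DMSO and 55 in antimycin, which was not among those tested with the filter on the other 15 libraries. The granule genes meg-2, meg-3 and meg-4 fell by 1.38 ± 0.23, 1.20 ± 0.27 and 1.09 ± 0.25. meg-2 was at 30.8, 28.3 and 44.2 CPM in DMSO and 11.9, 10.2 and 16.3 CPM in antimycin. Of 27 meiosis genes 2 were lower, a share near the background, with a median of -0.38. That count was 0 without DMSO replicate 1 and 1 without antimycin replicate 1 or 3, and across other settings it ran from 0 to 5.

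Of 19 tested regulators of the switch from sperm to oocytes, 8 were lower and 0 higher, with a median of -0.40. Without DMSO replicate 1 or antimycin replicate 1 the count was 2, and without DMSO replicate 2 or antimycin replicate 2 it was 5. It was 4 when only the mutant groups entered the fit. fog-2, which permits sperm in hermaphrodites, went from 43.5, 39.8 and 33.8 to 27.2, 23.7 and 21.4 CPM (-0.69 ± 0.17, adjusted p = 0.0047). fog-1, needed for sperm fate, was not called (-0.40 ± 0.19, adjusted p = 0.12), and fog-3 did not pass the filter, with 12 counts in DMSO and 19 in antimycin. Most of the sperm genes tested were higher. Of 23 tested major sperm protein genes of 30, 22 were higher, and their sum went from 90.6, 143 and 139 CPM to 674, 771 and 834 CPM. These genes are near-identical copies, so the count is not one of independent genes, and 14 of 14 were higher with the filter on the other 15 libraries. Of 30 other sperm genes tested of 57, 21 were higher, but 4 of 13 under that filter.

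The proteasome and the ribosome differed. Of 33 proteasome subunits 16 were lower and 0 higher, with a median of -0.33. The number ranged from 6 to 12 when single libraries were left out, was 8 when libraries were scaled by their totals alone, and was 6 when only the mutant groups entered the fit. Without DMSO replicate 3 it was 6, without antimycin replicate 2 it was 7, without antimycin replicate 1 it was 8, without antimycin replicate 3 it was 9, and without DMSO replicate 1 it was 10. rpn-1, a base subunit, was at 1909, 1049 and 1166 CPM in DMSO and 835, 872 and 916 CPM in antimycin, and was not called without DMSO replicate 1. Of 75 cytosolic ribosomal protein genes 3 were higher and 0 lower, with a median of 0.07. These were rpl-11.2, rpl-25.1 and rpl-14, with log2 fold changes of 1.05 ± 0.15, 0.90 ± 0.14 and 0.42 ± 0.14, of which rpl-14 overlaps another counted gene and was not called without DMSO replicate 3, antimycin replicate 2 or antimycin replicate 3. Of 70 genes for mitochondrial ribosomal proteins 1 was higher and 0 lower, with a median of -0.01. That gene, mrps-6, had 0.72 ± 0.26 (adjusted p = 0.046) and was not called without DMSO replicate 1, DMSO replicate 3 or any 1 antimycin library. The number called higher became 3 without DMSO replicate 2 and 0 without DMSO replicate 1, DMSO replicate 3 or antimycin replicate 3. Both ribosome lists held a smaller share of calls than all genes tested.

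Of 14 tested cytosolic chaperones 2 were higher and 5 lower. The higher share lay near the background of 15.2% and the lower share above its 8.33%. The 5 became 3 when libraries were scaled by their totals alone, with a stricter filter, with the filter on the other 15 libraries, and when only the mutant groups entered the fit. The 5 became 2 or 3 without DMSO replicate 1, DMSO replicate 3, antimycin replicate 2 or antimycin replicate 3, and the 2 became 1 without DMSO replicate 1, antimycin replicate 1 or antimycin replicate 3. hsp-90, which overlaps another counted gene, was at 1411, 1503 and 1513 CPM in DMSO and 1015, 1126 and 1143 CPM in antimycin (-0.43 ± 0.10, adjusted p = 0.0025). hsp-110 fell by 0.55 ± 0.13. hsp-16.2, a small heat shock gene and one of a set of near copies, rose from 2.26, 2.54 and 2.56 to 10.9, 19.4 and 14.2 CPM (2.53 ± 0.35, adjusted p = 5.3e-06).

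Nuclear genes for the respiratory chain had small median changes. For complex III, which the drug binds, and cytochrome c, 7 of 12 genes were higher and 0 lower, with a median of 0.37. Without antimycin replicate 3 the number was 3, and without DMSO replicate 1, DMSO replicate 3 or antimycin replicate 1 it was 4. It was 3 when only the mutant groups entered the fit and 4 with no filter. For complexes I, II, IV and V, 3, 1, 1 and 3 genes were higher, beside 15.2% over all genes tested. No difference between complexes was tested. Without single libraries the numbers for complexes I, II, IV and V ran from 0 to 3, 0 to 1, 0 to 1 and 2 to 4. In complex I 1 gene was lower, and 0 when only the mutant groups entered the fit. The medians of complexes I, II, IV and V were 0.15, 0.23, 0.21 and 0.24 over 35, 5, 13 and 12 tested genes. Of 16 tested genes of the mitochondrial unfolded protein response 2 were higher and 1, lonp-1, lower, shares near the background of 15.2% and 8.33%. Its usual reporters hsp-6 and hsp-60, which encode mitochondrial chaperones, were not called. hsp-6 was at 219.7, 179 and 226 CPM in DMSO and 234, 194 and 229 CPM in antimycin (0.08 ± 0.13, adjusted p = 0.7), and hsp-60 had -0.17 ± 0.12 (adjusted p = 0.31). dve-1, a homeobox factor of this response, rose from 17.7, 11.6 and 12.1 to 43.8, 47.3 and 36.5 CPM (1.60 ± 0.24, adjusted p = 1.2e-05). lonp-1, a mitochondrial protease, fell by 0.66 ± 0.18, although its groups overlapped. It was not called without DMSO replicate 1, and 2 of the 16 were lower without DMSO replicate 2.

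In metabolism, single genes stood out more than lists. cth-1 and cbs-1, enzymes of the route from homocysteine to cysteine, rose from 16.0, 11.3 and 20.96 to 54.9, 48.9 and 72.4 CPM and from 11.1, 10.4 and 4.89 to 17.7, 13.98 and 22.5 CPM, with adjusted p = 5e-06 and 0.0043. icl-1, which encodes both glyoxylate cycle enzymes, rose from 15.8, 8.65 and 11.2 to 29.2, 25.3 and 25.7 CPM (1.17 ± 0.21, adjusted p = 0.00013). The fatty acid desaturases fat-3 and fat-6 rose by 1.11 ± 0.15 and 0.61 ± 0.16, the second not without DMSO replicate 2, among 5 higher and 0 lower of 21 genes of fatty acid synthesis. Without DMSO replicate 2, 3 were higher and 1 lower. Of 27 genes of glycolysis and its neighbours 3 were higher and 3 lower (1 lower without DMSO replicate 2 or antimycin replicate 2), and of 25 of the citric acid cycle 3 were higher. These shares lay near the background of 15.2% higher and 8.33% lower. pygl-1, glycogen phosphorylase, went from 942, 805 and 761 to 534, 655 and 518 CPM (-0.56 ± 0.12, adjusted p = 0.0011). The intestinal thioredoxin gene trx-3, which overlaps another counted gene, rose from 2.66, 3.43 and 3.26 to 48.03, 53.2 and 32.1 CPM (3.82 ± 0.31, adjusted p = 3.1e-10).

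Families of xenobiotic metabolism were set beside the shares over all genes tested, 15.2% higher and 8.33% lower. Of 39 tested UDP-glucuronosyltransferases 4 were higher and 0 lower, of 28 glutathione S-transferases 4 and 0, and of 32 cytochromes P450 2 and 4. The share of higher glutathione S-transferases lay near the background, that of lower cytochromes P450 above it and the other shares below it. The 4 lower cytochromes P450 became 1 or 2 without DMSO replicate 1, 2 or 3 or antimycin replicate 1 or 2, and the 2 higher became 1 without DMSO replicate 1 or 3 or antimycin replicate 2 or 3. ugt-9 was at 9.19, 4.32 and 6.05 CPM in DMSO and 4.73, 9.68 and 5.15 CPM in antimycin and was not called. ugt-62 rose from 4.93, 4.47 and 7.22 to 13.96, 13.4 and 14.1 CPM and gst-28 from 11.98, 14.6 and 18.2 to 32.7, 31.2 and 38.1 CPM. gst-4, a common reporter of oxidative stress, had 0.67 ± 0.40 (adjusted p = 0.24) and overlaps another counted gene.

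Of 13 tested genes that act downstream of the insulin pathway factor DAF-16, 5 were higher and 2 lower. Over all genes tested the shares were 15.2% and 8.33%, and in so short a list the lower count rests on few genes. The list shares members with others described here, such as icl-1 with that of glycolysis and its neighbours. dod-3 rose from 6.13, 4.18 and 2.79 to 13.6, 15.1 and 11.3 CPM (1.54 ± 0.35, adjusted p = 0.0018), and dod-23 went from 156, 151 and 155 to 70.5, 52.2 and 58.5 CPM (-1.33 ± 0.14, adjusted p = 6e-08).

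In immune families the share of calls lay near the background of 15.2% higher and 8.33% lower. Of 61 C-type lectins tested of 211, 8 were higher and 7 lower. The 8 became 14 without DMSO replicate 3 and 5 without antimycin replicate 1, and the 7 became 4 without antimycin replicate 3. clec-190 (IV:15124931-15126121) went from 389, 375 and 352 to 104, 92.5 and 74.6 CPM (-2.04 ± 0.17, adjusted p = 4e-10), and clec-48 from 32.8, 30.1 and 31.7 to 13.96, 9.68 and 9.78 CPM. Of 28 lysozymes and saposin-like genes 4 were higher and 3 lower, and 2 were higher without DMSO replicate 2. ilys-5, an invertebrate lysozyme, went from 423, 364 and 411 to 229, 220.5 and 242 CPM (-0.79 ± 0.12, adjusted p = 1.4e-05). At the ends of the response, Y47D7A.15 went from 1.46, 1.94 and 5.59 to 363, 307 and 442 CPM (7.10 ± 0.42, adjusted p = 6.5e-13). M199.9, whose function is not given here, went from 195, 296 and 220.3 to 41.6, 25.3 and 26.6 CPM and had the lowest log2 fold change among the genes that met the rule for naming (-2.89 ± 0.24, adjusted p = 3.8e-10).

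The mutant's response was then set against those of wild-type N2 animals (WT) and of animals with the gk1005 allele of nhr-178, each grown with the same drug dose and solvent in 3 and 3 libraries. The difference of the responses was tested in the same fit. Compared with WT, 372 genes responded more upward in nhr-45 mutants (3.39%) and 142 more downward (1.29%), 4.68% in all. Compared with nhr-178 mutants the counts were 457 (4.16%) and 176 (1.6%), 5.76% in all. By itself, antimycin raised 227 genes (2.07%) and lowered 103 (0.938%) in WT, 3.01% in all, and 225 (2.05%) and 72 (0.656%) in nhr-178 mutants, 2.7% in all. Both comparisons use the same nhr-45 libraries, so they are not independent. The total for WT, 514, was 335 without replicate 3 of WT in DMSO and 336 without replicate 3 of WT in antimycin. The 372 became 242 and 243 without replicates 1 and 3 of WT in DMSO. The 142 became 74 without replicate 3 of WT in antimycin, 92 without replicate 3 of WT in DMSO and 94 without antimycin replicate 1 of nhr-45. Compared with nhr-178 mutants, the 176 became 114 without antimycin replicate 3 of either mutant and 117 without DMSO replicate 1 of nhr-178.

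Cuticle collagens and moulting genes included members whose response differed from WT. Of 10 tested body shape and strut collagens 5 rose more in the mutants, and 5 in each fit that left out 1 library. By itself, antimycin raised 4 and lowered 0 of these 10 in WT. Of 4 tested furrow collagens 0 differed from WT, and of 9 cuticlins and related genes 1 rose more. sqt-3 was not called in WT, at 1.12 ± 0.41, or in nhr-178 mutants, at 1.18 ± 0.44, and its difference from WT was 3.82 ± 0.58 (SE, adjusted p = 0.00011). dpy-13 rose by 2.64 ± 0.37 in WT, with a difference of 3.29 ± 0.55 (adjusted p = 0.00037). For col-10 the log2 fold change was -1.33 ± 0.33 in WT and -2.60 ± 0.32 in nhr-178 mutants, against 4.78 ± 0.33 in nhr-45 mutants (adjusted p of the difference = 9.5e-10 from WT and 1e-11 from nhr-178). col-10 was not typical of WT, where antimycin raised 20 and lowered 4 of 98 tested col genes, with a median of 0.41. Of these 98, 33 responded more upward in nhr-45 mutants than in WT and 3 more downward, beside 3.39% and 1.29% over all genes. The 33 ran from 25 to 36 without single libraries. Of 15 moulting matrix genes 7 rose more than in WT, and 4 of the 8 tested with the filter on the other 15 libraries, with mlt-8 at a difference of 3.95 ± 0.37 (adjusted p = 3.8e-08). Of 18 collagen processing genes 6 did, with dpy-18 at 1.20 ± 0.22 (adjusted p = 0.0011). The 6 became 3 with no filter and without mutant DMSO replicate 2, mutant antimycin replicate 1, or replicate 1 of either WT group.

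Single genes of other tissues also differed from WT. Of 32 tested muscle genes 4 responded more upward and 1 more downward, and of 22 pharyngeal genes 2 and 1. Of 20 intestinal genes 2 and 1 did so, and of 44 neuronal genes 2 and 0. Over all genes tested the shares were 3.39% and 1.29%. Without single libraries, the upward muscle count ran from 2 to 5 and the neuronal count from 0 to 6. The response was larger for myo-2 by 1.35 ± 0.23 (adjusted p = 0.00037), for pqn-74 by 3.50 ± 0.54 (adjusted p = 0.00015), for nlp-25 by 3.12 ± 0.31 (adjusted p = 1.2e-07) and for ifb-2 by 1.19 ± 0.20 (adjusted p = 0.00029). unc-54, not called in the mutants, rose by 1.27 ± 0.18 in WT (difference -1.16 ± 0.25, adjusted p = 0.0058). cth-1, dve-1, trx-3 and nhr-19 had log2 fold changes of -0.55 ± 0.28, -0.28 ± 0.24, -0.72 ± 0.36 and -0.08 ± 0.24 in WT, and their differences were 2.44 ± 0.38, 1.87 ± 0.33, 4.54 ± 0.47 and 2.38 ± 0.35 (adjusted p = 0.00015, 0.00069, 2.7e-07 and 8.8e-05). cpr-1 and ugt-62 rose in the mutants but less than in WT, with differences of -1.32 ± 0.21 and -2.34 ± 0.30 (adjusted p = 0.00015 and 1.3e-05). Of 39 UDP-glucuronosyltransferases, antimycin raised 10 in WT and 11 in nhr-178 mutants, against 4 in nhr-45 mutants. For the difference, 7 were more downward and 0 more upward against WT, and 8 and 1 against nhr-178 mutants. Of 32 cytochromes P450, 13 rose in WT and 13 in nhr-178 mutants, against 2. There 3 and 5 were more downward and 0 more upward. Of 27 oocyte and eggshell genes 0 were called for the difference from WT in either direction. At the shares over all genes few calls would fall in so short a list, so the 0 says little. By itself, antimycin lowered 22 of the 27 in nhr-45 mutants and 2 in WT, with median log2 fold changes of -0.55 and -0.23. Compared with nhr-178 mutants 6 fell more, and 3 without nhr-45 in antimycin replicate 2. The difference from WT for hsp-16.2 was -0.15 ± 0.49 (adjusted p = 0.91). A p above the threshold does not show that the responses were equal.

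**Figure D5:**
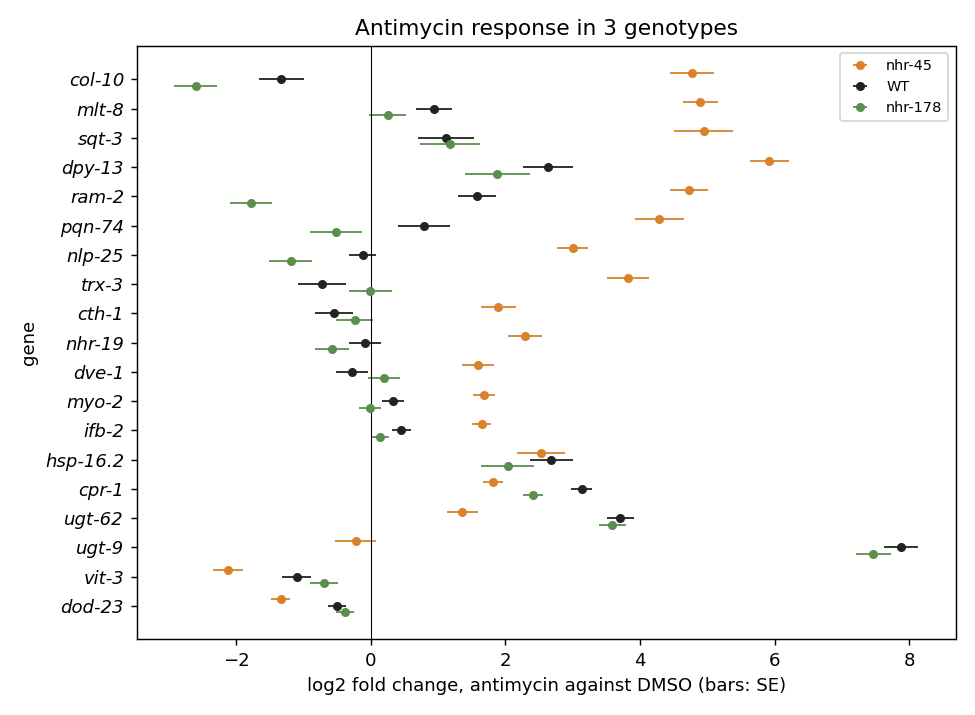
Log2 fold change in antimycin against DMSO (x axis, bars SE) for 19 genes (y axis) in nhr-45 mutants, WT and nhr-178 mutants, 3 libraries per group. Collagen and moulting genes lie farther right in nhr-45 mutants, hsp-16.2 lies at similar values in all 3 genotypes, and ugt-9 rises in WT and nhr-178 mutants and lies near 0 in nhr-45 mutants.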

How the data were processed

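RNA was measured in 18 whole-animal libraries, 6 groups of 3. The authors deposited counts per gene as 1 table of whole numbers, not normalised. Per the submitters' processing notes the tools included R 3.6.3, Bowtie2, DESeq2 and RSEM, without their roles. Counts may therefore be rounded estimates. The sources used here do not give the build, annotation, use of strand or handling of multi-mapping reads, so near-identical genes (msp, nsp, abu, vit, hsp-16) and overlapping genes are uncertain. Symbols (23161 of 23368 genes) and positions (23363) were joined by WormBase identifier from the WBcel235 annotation.

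All 18 libraries entered 1 fit of the counts with edgeR 4.0.16 (R 4.3.3), with TMM scaling, filterByExpr by group, 1 mean per group and 12 residual degrees of freedom. The biological coefficient of variation was 17.1%. Tests were two-sided quasi-likelihood tests, with Benjamini-Hochberg adjustment over the 10981 genes of a comparison and calls under 0.05. Each SE was obtained by dividing the fold change, in log2, by the root of the F statistic. A group without counts was set at a floor of 3 counts, 0.162 CPM in DMSO and 0.186 CPM in antimycin. Floors and counting intervals cover counting error only. CPM is not divided by gene length. On simulated counts for the mutant comparison, with 10981 genes, 70% of 2-fold and 100% of 4-fold changes were called, with 7 false calls. For the difference from WT 41% and 99% were called, and for that from nhr-178 mutants 39% and 98%, with 4 and 9 false calls. The changed genes were drawn from those with a mean of at least 5 CPM, so these shares do not cover genes of lower level. In the simulation 100 genes changed 2-fold and 100 changed 4-fold, with as many raised as lowered. The observed response was larger and leaned upward, so the shares and false calls may not carry over to it.

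Genes were named as the 10 most raised and 10 most lowered called genes of at least 5 CPM whose groups did not overlap, up to 4 called genes of each list with at least 5 CPM, and a set of stage and stress markers. The text names part of these and 18 genes outside the rule, chosen after their values were seen: adh-1, alg-4, bli-6, col-101, col-119, col-143, col-8, egg-6, grd-4, grd-6, myo-3, noah-1, phat-3, ram-2, skpo-1, tts-2, unc-54 and wrt-4. The members, lists and tests were chosen with earlier results of these data known. Alternatives were other scaling, other filters, DESeq2 1.42.0, a replicate block, fewer groups and leaving out each library. Libraries of a group differed beyond sampling noise (chi-square per degree of freedom 5.68 to 18.9 in the mutants).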

Additional observations from a re-analysis of the deposited data

Results flagged for a closer look

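The response to antimycin differed between nhr-45 mutants and another genotype for the counts and named genes given here, by a test of the difference in the same fit. No explanation was tested. Against WT 372 genes responded more upward and 142 more downward, and against nhr-178 mutants 457 and 176. All values below are differences of log2 fold changes, nhr-45 mutants minus the other genotype.

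Against WT, cuticle collagens differed by 6.10 (col-10), 6.94 (col-91), 3.82 (sqt-3), 3.77 (dpy-4), 3.29 (dpy-13), 3.15 (ram-2), 2.63 (bli-6), -0.94 (col-143) and -0.92 (col-8). The matrix, processing and epidermal genes differed by 6.40 (mlt-9), 5.44 (noah-1), 5.29 (ptr-4), 4.72 (nas-27), 3.95 (mlt-8), 3.42 (wrt-10), 3.12 (nlp-25), 2.95 (grl-16), 1.60 (nas-7), 1.35 (nlp-33), 1.24 (cutl-15) and 1.20 (dpy-18). The pharyngeal, muscle and neuronal genes differed by 3.50 (pqn-74), 1.39 (tni-1), 1.35 (myo-2), 1.09 (tni-4), 0.98 (flp-11), -1.16 (unc-54) and -2.72 (phat-3).

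Genes of metabolism, gut and stress differed from WT by 4.54 (trx-3), 3.69 (adh-1), 3.61 (dod-3), 2.44 (cth-1), 1.60 (cbs-1), 1.22 (gst-28), 1.19 (ifb-2), 1.17 (icl-1), 1.01 (ifc-2), 0.75 (fat-3), -0.72 (rpn-1), -0.83 (dod-23), -1.32 (cpr-1), -2.34 (ugt-62) and -8.10 (ugt-9). Regulators and others differed by 2.38 (nhr-19), 0.67 (rpl-25.1), 1.87 (dve-1), 0.95 (lin-14), 3.86 (Y47D7A.15) and 5.37 (tts-2), and yolk genes by -1.01 (vit-3) and -1.14 (vit-4).

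Against nhr-178 mutants and not called against WT, collagens and cuticlins differed by 5.40 (dpy-2), 5.37 (cut-2), 2.43 (dpy-10), -0.57 (col-119) and -1.04 (col-95). The timing and Patched genes differed by 2.61 (lin-42), 1.68 (myrf-1), 1.28 (lin-29) and 1.65 (ptc-3). The others differed by 6.02 (abu-14), 1.43 (myo-1), 1.01 (flp-33), 0.95 (flp-9), 0.81 (fat-6), 1.06 (rpl-11.2), -0.67 (ilys-5), -0.93 (asp-8) and -1.36 (meg-2).

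Calls were lost in at least 1 fit without a single library for Y47D7A.15, fat-3, flp-11, grl-16, icl-1, mlt-9, phat-3, rpl-25.1, rpn-1, tni-4, vit-3, vit-4 and wrt-10 against WT. The same held for abu-14, asp-8, col-119, cut-2, dpy-2, fat-6, flp-33, flp-9, ilys-5, lin-29, lin-42 and myrf-1 against nhr-178 mutants. Other settings also ended calls. Against WT, rpn-1 was not called with other scaling, a stricter filter, DESeq2, a replicate block (adjusted p = 0.056) or the filter on the other 15 libraries, and vit-3 not with other scaling, a stricter filter or the filter on the other 15 libraries. fat-3 and rpl-25.1 were not called with no filter. With only the compared groups in the fit, fat-3, phat-3, rpl-25.1, rpn-1, tni-4 and vit-3 were not called against WT, and fat-6 and lin-29 not against nhr-178 mutants. Against those, lin-29 and myrf-1 were not called with a replicate block (adjusted p = 0.052 for both), and col-119 not when libraries were scaled by totals alone.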

How the results depend on the processing

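Under every alternative run, the number of genes called in the mutants stayed within 1.5 times of 2585, and of the 227 genes checked none that was called changed direction. Most of the 227 were picked as called genes with large changes, and the alternatives reuse most of the same libraries. A change of direction was therefore unlikely from the start. DESeq2 called 1706 higher and 860 lower, scaling by size factors 1734 and 768, by total counts alone 1789 and 656, no filter 1668 and 1027, a stricter filter 1369 and 731. With only the mutant groups in the fit the higher share of calls rose from 64.6% to 75.03%. Without single libraries between 1836 and 2536 genes were called, and without both shallow libraries 1624 higher and 647 lower. For the difference from WT, fits without single libraries called 335 to 506 genes in place of 514, and for the difference from nhr-178 mutants 440 to 649 in place of 633. Of 3376 checks of single genes in the mutants 3131 left the call as it was, 10 gained one and the others lost it. Of 2407 checks of single differences 2223 left the call and 184 lost it. Only differences already called were checked, so no call could be gained there.

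The replicate numbers do not pair the samples by the labels, and deviations of same-numbered mutant libraries correlated at 0.030, 0.027 and 0.078. With a replicate block 1635 genes were higher and 928 lower, 490 differed from WT and 640 from nhr-178 mutants. A stricter filter lowered several counts of higher genes by over 1.5 times, to 2 furrow collagens, 4 cuticlins, 4 astacins, 8 other sperm genes, 10 pharyngeal genes, 5 lectins and 2 lysozymes, and that of lower proteasome subunits to 9. With no filter 13 lectins and 5 cuticlins were higher. Depth limits low genes most. The filter on the other 15 libraries, chosen after seeing the data, tested fewer genes and called 1266 higher and 734 lower.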

Other observations

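Families outside the lists were looked at by symbol, chosen after their values were seen. All 8 tested abu genes, 7 nspb genes, 9 nspd genes and 5 lpr lipocalin genes were higher in antimycin. In DMSO these families summed to 1.396, 2.100, 13.3 and 1.38 CPM, and in antimycin to 78.4, 99.9, 71.4 and 63.9 CPM. With the filter on the other 15 libraries 0, 1, 2 and 0 of them were tested, so the counts rest on genes that passed through the treated libraries. Members of the abu, nspb and nspd families are near copies of each other. For nspd the count was 6 without DMSO replicate 1 or antimycin replicate 3. Among 8 aquaporins, which pass water or glycerol through membranes, 4 were higher and 0 lower, and 3 to 5 when single libraries were left out.

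Among 25 nuclear pore genes (npp) 12 were lower and 0 higher, with a median log2 fold change of -0.48. The 12 became 8 when libraries were scaled by totals alone, 4 without DMSO replicate 1, 6 without antimycin replicate 3, 7 without antimycin replicate 2 and 8 without antimycin replicate 1. The alcohol dehydrogenase gene adh-1, which overlaps another counted gene, was at 9.32, 12.5 and 11.6 CPM in DMSO and 169, 134 and 152 CPM in antimycin (3.77 ± 0.19, SE, adjusted p = 1.7e-14). The non-coding RNA gene tts-2 was at 6.79, 3.88 and 6.52 CPM and 145, 131 and 157 CPM (4.66 ± 0.27, adjusted p = 5e-13). In both genes the 3 treated libraries lay over 10-fold above the controls.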
